A study of Mus musculus with 912 samples.

Results

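CA3 and CA1 pyramidal neurons sorted as negative for FOS protein were compared in single nuclei of the mouse hippocampus. The members were the FOS- nuclei, those without FOS protein staining, that the authors' classifier had named CA3 or CA1 and that came from mice giving both types. Each nucleus also had at least 4000 genes above 1 on the log2(TPM+1) scale, where TPM is the transcript abundance scaled for gene length and depth. This gave 33 of the 912 nuclei of the series, 14 of them CA3 and 19 CA1. All mice were female, wild-type C57BL6 animals of 9 or 8.85 weeks. HC mouse 4 and HC mouse 8 had stayed in the home cage (HC), whereas 1 h mouse 4 and 1 h mouse 10 had spent 15 min in an unfamiliar cage with huts and tunnels (NE) and then 1 h back in the HC. HC mouse 4 gave 1 CA3 and 4 CA1 nuclei, HC mouse 8 gave 3 and 4, 1 h mouse 4 gave 5 and 5, and 1 h mouse 10 gave 5 and 6. Values were averaged over the nuclei of each mouse and type, so that the mouse is the replicate and n = 4 for each type.

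CA3 pyramidal neurons receive mossy fiber input from dentate granule neurons, excite each other through recurrent collaterals, and send Schaffer collaterals to CA1. CA1 pyramidal neurons carry the output of this circuit to the subiculum and cortex. Kainate receptors at the mossy fiber synapse are a known feature of CA3, and the protein CTIP2, encoded by Bcl11b, marks CA1 and dentate granule neurons.

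The sort bears on which CA1 neurons were compared. All 33 nuclei were NEUN+ and had been sorted without PROX1 and without CTIP2, a gate meant for CA3, CA2 and interneurons, and the 48 FOS- CA1 nuclei of the CTIP2+ gate came from 2 other mice of 8.7 weeks, HC mouse 3 and 1 h mouse 2. At the RNA level Bcl11b was at 0.00, 0.00, 0.74 and 0.29 log2(TPM+1) in the CA3 nuclei of HC mouse 4, HC mouse 8, 1 h mouse 4 and 1 h mouse 10, and at 2.70, 1.26, 0.17 and 2.44 in their CA1 nuclei. In the CTIP2+ CA1 nuclei it was at 2.84 and 2.76. The order of the mice is the same wherever 4 values follow each other.

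The cell type labels were set by the authors from these same transcriptomes, with 51 genes, so that any gene of that classifier is given as a description and every p-value below is for types defined on the RNA of the same nuclei. The labels were checked with 12 CA3 and 10 CA1 markers. Of these, the CA3 marker Rnf182 and the CA1 marker Mpped1 are also classifier genes, so the check was not independent of the labelling. The mean of the CA3 markers was between 2.11 and 6.91 log2(TPM+1) in the 14 CA3 nuclei, with a median of 5.23, and between 0.647 and 4.47 in the 19 CA1 nuclei, with a median of 1.58. For the CA1 markers the range was 0.491 to 3.80 in CA3 nuclei, with a median of 1.33, and 0.484 to 5.12 in CA1 nuclei, with a median of 2.76. Most nuclei followed their label, but in 4 CA1 nuclei the CA3 markers were the higher of the 2 sets, and in 1 CA3 nucleus the CA1 markers were. The CA3 nucleus and 2 of the CA1 nuclei were from 1 h mouse 4, and the other 2 from HC mouse 4 and HC mouse 8. These 5 nuclei stayed in the comparison, and values without them are given where a result turns on them.

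**Figure D1:**
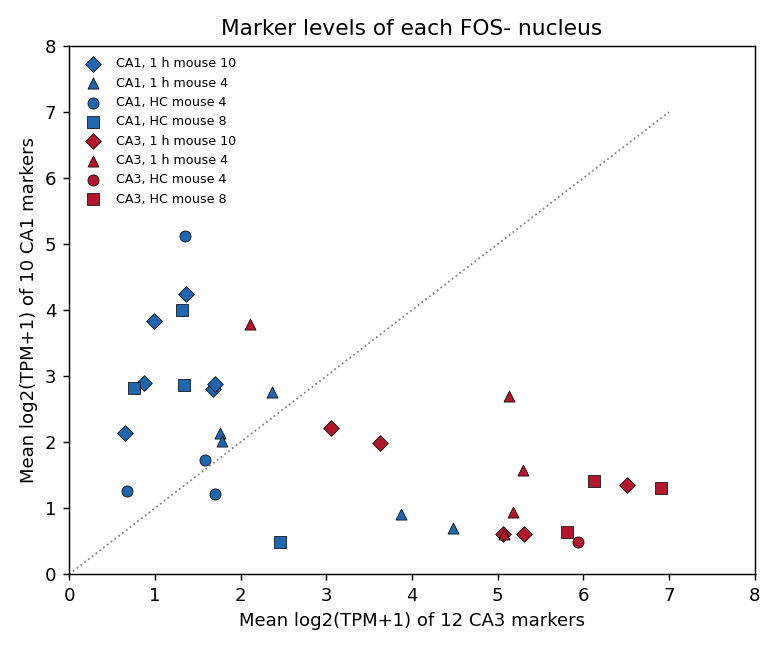
Mean log2(TPM+1) of 12 CA3 markers (x axis) against that of 10 CA1 markers (y axis) in each of the 33 FOS- nuclei, coloured by the authors' label and shaped by mouse, with equality as the dotted line. Of the CA3 nuclei 13 of 14 lie below the line, and 4 of the 19 CA1 nuclei lie below it too. The markers Rnf182 and Mpped1 are also genes of the authors' classifier.

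CA3 libraries had higher total counts on average, a difference that did not pass its test. The total count per nucleus was 719862 to 2423886 in CA3 and 343713 to 2182368 in CA1, with medians of 1200772 and 662208. Over the mouse means the difference was 482370 counts (two-sided exact permutation test, p = 0.114, n = 4 against 4). This test leaves out that both types came from the same mice, and CA3 was higher in each of the 4 mice. The smallest p that 4 against 4 mice allow without the pairing is 0.0286. CA3 nuclei had 7860 ± 866 genes above 1 (SD, n = 4) and CA1 nuclei 7045 ± 512, a difference that did not pass the exact permutation test (p = 0.171). After thinning to 100000 counts, the genes with more than 1 count were 4746 ± 525 and 4205 ± 248 (exact permutation p = 0.114). Because the median difference of all tested genes was 0.21 log2(TPM+1) in favour of CA3, each difference below is to be read against that shift, and the part of depth in any single gene was not tested.

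No gene was called between CA3 and CA1 at the level of the mouse. With the edgeR quasi-likelihood test on counts summed per mouse and type, 0 of 10705 genes (0%) had a Benjamini-Hochberg adjusted p below 0.05, and 363 had an unadjusted p below 0.05. The smallest adjusted p was 0.147. DESeq2 on the same sums called 357 genes, 156 higher in CA3 (1.21% of the 12874 genes with an adjusted p) and 201 lower (1.56%), and limma on the mouse means of log2(TPM+1) called 0 of 12251. Leaving out the 5 nuclei whose markers went against their label, edgeR called 2 genes, both higher in CA3. These were Trps1, at a log2 fold change of 9.02 ± 0.94 (SE, adjusted p = 0.0392), and Ly6e, a GPI-anchored membrane protein, at 4.27 ± 0.50 (adjusted p = 0.0495). With all nuclei they were at 3.60 ± 1.75 and 1.50 ± 1.03, both at an adjusted p of 1. Trps1 was at 9.12 without 1 h mouse 4, 3.33 without 1 h mouse 10, 2.47 without HC mouse 4 and 3.46 without HC mouse 8. Ly6e is named here after its values were seen, and the nuclei were left out by marker genes measured in the same libraries.

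The levels themselves separated the types for a subset of genes. Of 10172 tested genes with a TPM value, 287 (2.82%) had all 4 CA3 mouse means above all 4 CA1 mouse means, and 123 (1.21%) had all 4 below. For a single gene such a separation is the smallest p that the exact permutation test allows, 0.0286 before any correction. That p covers both directions, and 1 of the 70 assignments of 4 against 4 mice puts all CA3 means above. The share of 2.82% above was over 1 in 70, and the 1.21% below was not. Neither share was tested. The 10 genes of largest difference in each direction were taken from these, so their separation was fixed by the choice and none is past the threshold of the edgeR test. Leaving out the 5 nuclei moved the difference of 1 of 115 named genes by more than the SD between mice. That gene was neither Rnf182, then at 7.16 in place of 6.59, nor Parm1, then at -4.19 in place of -3.00.

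The genes highest in CA3 were Rnf182, Cpne4, Myo5b, Chgb, Nectin3, Golm1, Kcnip2, Slc1a2, Trps1 and Grik4, with differences between 6.59 and 4.69. Rnf182, which encodes a brain-enriched ubiquitin ligase, stood at 9.79, 9.18, 7.90 and 8.58 log2(TPM+1) in CA3 and at 0.38, 1.20, 2.88 and 4.63 in CA1. It was above 1 in 14 of 14 CA3 nuclei and 10 of 19 CA1 nuclei, and it is a gene of the classifier. Every CA3 mouse was therefore above every CA1 mouse, and 1 h mouse 10 had the highest CA1 value. Chgb, encoding the secretory granule protein chromogranin B, was at 9.40, 7.63, 8.35 and 7.69 in CA3 and at 2.25, 3.48, 3.35 and 2.79 in CA1. Its edgeR log2 fold change was 3.65 ± 0.68 (SE, adjusted p = 0.37), and DESeq2 gave an adjusted p of 0.00086. The 4 mice of each type lay close together for this gene, with an SD of 0.82 in CA3 and 0.57 in CA1.

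Cpne4, a calcium-dependent membrane-binding copine, was at 7.51, 8.63, 5.63 and 6.27 in CA3 and at 0.00, 2.76, 1.43 and 1.42 in CA1 (log2 fold change 3.90 ± 1.33, edgeR adjusted p = 1). Golm1, a Golgi membrane protein, was at 6.79, 4.93, 4.06 and 6.48 against 0.00, 0.55, 0.75 and 0.79, and it was above 1 in 12 of 14 CA3 nuclei but in 4 of 19 CA1 nuclei. With a log2 fold change of 5.86 ± 1.26 it reached an edgeR adjusted p of 0.54 and a DESeq2 adjusted p of 1.2e-05. Low and similar values in all CA1 mice set this gene apart from Rnf182, whose CA1 values spread over more than 4 log2 units. Myo5b, a myosin motor of recycling endosomes, averaged 7.50 ± 1.67 in CA3 and 1.97 ± 1.18 in CA1 (SD, n = 4). For Slc1a2, the glutamate transporter GLT-1 that astrocytes also express strongly, the means were 6.78 ± 1.89 and 1.85 ± 1.51. Trps1, a GATA-type transcriptional repressor, averaged 5.78 ± 2.03 against 0.87 ± 0.96, and the single CA3 nucleus of HC mouse 4 gave its highest value, 8.82. Without that mouse the difference of Trps1 was 3.65 in place of 4.92.

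The genes highest in CA1 were Fnbp1l, Fam163b, Cdh13, Gm26549, Dcn, Dapk1, Cbx3, Ciapin1, Bhlhe40 and Parm1, with differences between -4.40 and -3.00. Fnbp1l, an F-BAR protein of actin and membrane remodelling and a classifier gene, was at 0.00, 0.19, 1.19 and 0.68 in CA3 and at 5.96, 5.14, 2.53 and 6.03 in CA1. Cdh13, the membrane-anchored T-cadherin, was at 0.00, 2.10, 0.74 and 0.44 against 4.95, 5.29, 4.66 and 2.56 (log2 fold change -6.81 ± 1.33, edgeR adjusted p = 0.41). Dcn, the secreted proteoglycan decorin, was at 0.77, 0.26, 0.15 and 0.55 against 4.29, 2.58, 6.40 and 1.25, and had the lowest edgeR p of these 20 genes (log2 fold change -9.86 ± 1.20, adjusted p = 0.15). It was above 1 in 7 of 19 CA1 nuclei and in 2 of 14 CA3 nuclei, so its CA1 mean came from a minority of nuclei. In the second pair of libraries, those of HC mouse 8 and 1 h mouse 10, the difference of Dcn was -1.51, against -4.89 in the first pair.

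Fam163b, a membrane protein of little known function, was at 0.00, 0.00, 0.29 and 0.00 in CA3 and at 7.51, 2.93, 2.86 and 1.84 in CA1, and was above 1 in 1 of 14 and 10 of 19 nuclei. Bhlhe40, a transcriptional repressor linked to the circadian clock and to activity, was at 0.00, 0.75, 0.13 and 0.00 against 3.28, 5.65, 3.08 and 0.97 (log2 fold change -8.86 ± 1.57, edgeR adjusted p = 0.32). For both genes CA3 values were near 0 in every mouse. The kinase gene Dapk1, a calcium/calmodulin-dependent cell death kinase, averaged 0.90 ± 1.13 in CA3 and 4.05 ± 0.51 in CA1. Parm1, a mucin-like membrane protein, averaged 1.41 ± 1.29 and 4.41 ± 1.27, and Ciapin1, a factor of iron-sulfur cluster assembly, 1.24 ± 1.38 and 4.30 ± 1.58. Gm26549, a non-coding RNA annotated from a bidirectional promoter, and Cbx3, the heterochromatin protein HP1 gamma, were present in both types. Gm26549 was at 0.00, 5.24, 7.42 and 7.34 in CA3 and at 8.08, 8.34, 8.96 and 8.04 in CA1, and the value of 0.00 is again the single CA3 nucleus of HC mouse 4. Without that mouse its difference was -1.78 in place of -3.35, that of Fam163b was -2.45 in place of -3.71 and that of Ciapin1 -1.89 in place of -3.06.

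**Figure D2:**
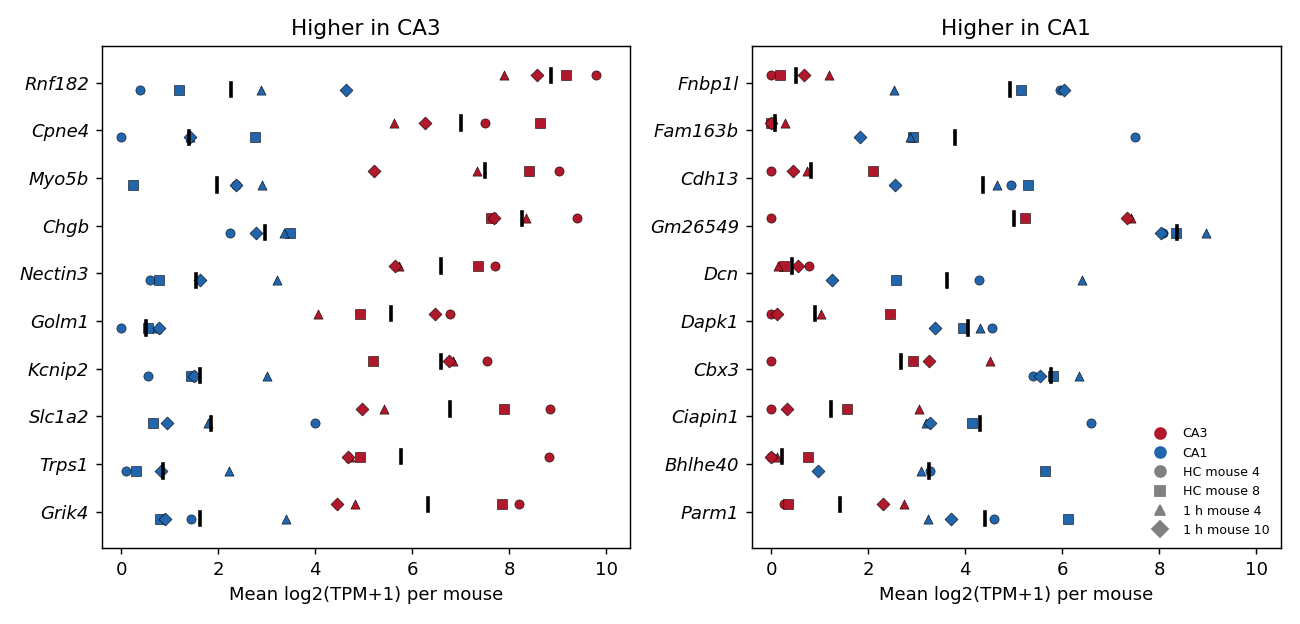
Mean log2(TPM+1) per mouse (x axis) of the 10 genes of largest difference in each direction, red for CA3 and blue for CA1, with the shape giving the mouse and the black bar the mean of 4 mice. The genes were chosen because the colours do not overlap, Nectin3 is listed as Pvrl3 in the files, and on the right the CA3 values of Gm26549 reach 7.42.

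On GRCm38, the assembly called mm10, GENCODE vM21 places the protein-coding genes Rnf182 at chr13:43615710-43670945 on the plus strand, Chgb at chr2:132781278-132795079 on the plus strand, Fnbp1l at chr3:122538719-122619715 on the minus strand and Parm1 at chr5:91517615-91626894 on the plus strand. Their promoters follow, since Rnf182 and Fnbp1l had the largest differences and Chgb and Parm1 held the most motif matches in each direction. Each runs from 250 bases before to 50 bases after the RefSeq start of the gene (RefSeq, GRCm38.p6), 5′ to 3′ on the strand of the gene. Capitals mark the cAMP response element TGACGTCA and the E-box CAGCTG, each searched on both strands, which are identical for these palindromes and do not overlap each other. The intervals are chr13:43615547-43615846 for Rnf182, chr2:132781392-132781691 for Chgb, chr3:122619665-122619964 for Fnbp1l and chr5:91517450-91517749 for Parm1.
Rnf182: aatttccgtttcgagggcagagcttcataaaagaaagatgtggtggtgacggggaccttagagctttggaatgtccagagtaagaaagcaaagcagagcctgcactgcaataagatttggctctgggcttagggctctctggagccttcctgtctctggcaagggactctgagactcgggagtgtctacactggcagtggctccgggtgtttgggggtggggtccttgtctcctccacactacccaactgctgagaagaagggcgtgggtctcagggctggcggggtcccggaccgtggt
Chgb: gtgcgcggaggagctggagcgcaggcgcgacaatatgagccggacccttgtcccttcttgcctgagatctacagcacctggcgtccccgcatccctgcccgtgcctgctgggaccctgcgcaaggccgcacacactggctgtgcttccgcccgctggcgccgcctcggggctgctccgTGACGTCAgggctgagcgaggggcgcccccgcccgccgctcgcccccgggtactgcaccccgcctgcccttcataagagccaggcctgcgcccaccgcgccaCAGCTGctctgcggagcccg
Fnbp1l: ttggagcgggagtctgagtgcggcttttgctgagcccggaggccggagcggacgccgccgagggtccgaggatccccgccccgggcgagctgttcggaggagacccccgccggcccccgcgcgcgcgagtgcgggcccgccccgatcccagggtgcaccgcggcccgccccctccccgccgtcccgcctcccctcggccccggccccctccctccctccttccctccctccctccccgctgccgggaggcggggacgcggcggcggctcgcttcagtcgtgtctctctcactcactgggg
Parm1: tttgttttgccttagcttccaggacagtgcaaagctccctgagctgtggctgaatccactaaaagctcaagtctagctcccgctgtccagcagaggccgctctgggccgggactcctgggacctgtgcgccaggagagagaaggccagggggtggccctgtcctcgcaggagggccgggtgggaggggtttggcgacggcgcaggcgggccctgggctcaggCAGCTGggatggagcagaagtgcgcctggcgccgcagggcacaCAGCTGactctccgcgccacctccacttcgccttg

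The Chgb promoter held the cAMP response element 72 bases before the start and an E-box from base 31 of the transcript, and Parm1 held E-boxes 28 bases before the start and from base 16 of the transcript. RefSeq promoters were matched for 7 of the 10 genes higher in CA3 and 6 of the 10 higher in CA1. A cAMP response element was in 1 of the 7 and 0 of the 6, against 1.88% of 27025 promoters, and an E-box in 2 of the 7 and 3 of the 6, against 16.1%. A match is a run of letters and not a shown site, and Rnf182 and Fnbp1l held neither.

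Among the CA3 markers, 7 of 12 tested genes had all CA3 mice above all CA1 mice, against 2.82% of all tested genes, and the median difference was 3.99, against 0.21 over all tested genes. Besides Rnf182, Cpne4, Nectin3 and Grik4 these were Bok, Elavl2 and Iyd. Bok, a BCL-2 family member abundant in CA3, was at 8.88, 2.54, 3.32 and 2.80 in CA3 and at 0.00, 0.00, 1.03 and 0.00 in CA1, and Iyd, the iodotyrosine deiodinase, at 4.69, 5.94, 2.91 and 1.55 against 0.00, 0.00, 0.87 and 0.00. Each was above 1 in 7 of 14 CA3 nuclei and 1 of 19 CA1 nuclei. Elavl2, a neuronal RNA-binding protein, averaged 5.53 ± 1.44 and 1.44 ± 0.28. The scaffold Homer3 averaged 4.87 ± 1.67 against 0.99 ± 1.52, the proteoglycan Spock1 5.72 ± 2.15 against 2.90 ± 2.86, the cytokine signalling inhibitor Socs2 7.20 ± 1.71 against 4.87 ± 2.63, the zinc finger factor Plagl1 1.48 ± 1.30 against 0.66 ± 1.02 and the neuropeptide Y receptor Npy2r 2.69 ± 1.92 against 2.38 ± 1.67, and in these 5 the mice overlapped. DESeq2 called 3 of the 12, Cpne4, Elavl2 and Iyd, all higher in CA3, against 1.21% of all genes it tested.

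The CA1 markers were weak in these CA1 nuclei. Of 8 tested members 0 had separated mice, although all 8 differences were negative, with a median of -1.30. Over all tested genes 1.21% had CA3 mice all below, and the median difference was 0.21. Mpped1, a metallophosphoesterase domain gene and classifier gene, was at 0.48, 0.00, 2.60 and 1.56 in CA3 and at 4.92, 2.13, 3.66 and 4.77 in CA1. Wfs1, the wolframin of the endoplasmic reticulum that is a standard CA1 label, averaged 1.35 ± 0.98 in CA3 and 2.84 ± 1.26 in CA1 (edgeR adjusted p = 1), and Fibcd1, a chondroitin sulfate receptor, 0.51 ± 0.77 and 2.07 ± 1.93. Pou3f1, a POU-domain transcription factor, averaged 0.24 ± 0.28 and 1.63 ± 1.42. Smaller differences were seen for the orphan receptor Gpr161 (-1.21), the sulfotransferase Ndst4 (-1.07), the mannosidase Man1a (-0.82) and the palmitoyltransferase Zdhhc2 (-0.82). The TGF-beta family ligand Lefty1 did not pass the filter on low counts, at 0.39 ± 0.78 in CA3 and 1.01 ± 1.18 in CA1.

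CA1 nuclei of the CTIP2+ gate gave a second view of CA1, from 2 other mice in another library set. Arc was above 2.5 log2(TPM+1) in 15 of 27 of these nuclei in HC mouse 3 and in 8 of 21 in 1 h mouse 2. In the comparison this held for 4 of 19 CA1 nuclei. The paper left FOS- nuclei with such Arc levels out of its differential expression tests. Gate, mouse, library and Arc level therefore cannot be told apart, and the part of each was not tested. Wfs1 was at 6.73 and 4.48 in HC mouse 3 and 1 h mouse 2, Fibcd1 at 4.22 and 5.14, and Mpped1 at 5.76 and 4.40. Of the 10 genes highest in CA3, 10 had both CTIP2+ CA1 mice below all 4 CA3 mice, where 9.54% of all tested genes did. Of the 10 genes highest in CA1, 6 had both CTIP2+ mice above all CA3 mice, where 3.12% of all tested genes did. The other 4 were Cdh13, Dcn, Ciapin1 and Parm1. Both counts use the same CA3 means by which these genes were chosen. The CA3 side was therefore fixed by the choice, and the shares over all tested genes are not a like background. Cdh13 was at 0.76 and 0.72 in CTIP2+ CA1 nuclei, within the range of CA3, and Dcn at 0.42 and 0.88. With the CTIP2+ nuclei added as 2 further CA1 mice, the difference of Cdh13 was -2.34 and that of Dcn -2.21.

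Some genes higher in CA3 were also higher in the CTIP2+ CA1 nuclei than in the CA1 nuclei of the comparison. Chgb was at 6.39 and 6.20 there, and Zbtb20 at 7.49 and 7.91, both below every CA3 mouse and above every CA1 mouse of the comparison. Dkk3, an inhibitor of Wnt signalling and a classifier gene, was at 7.45 and 6.78, which lies inside the CA3 range of 6.55 to 8.35, and Neurod6 was at 7.80 and 7.30 against a CA3 range of 7.62 to 8.23. The CA1 nuclei of the comparison were lower in both, at 3.12, 3.24, 4.37 and 6.39 for Dkk3 and at 6.46, 4.14, 5.91 and 4.34 for Neurod6.

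**Figure D3:**
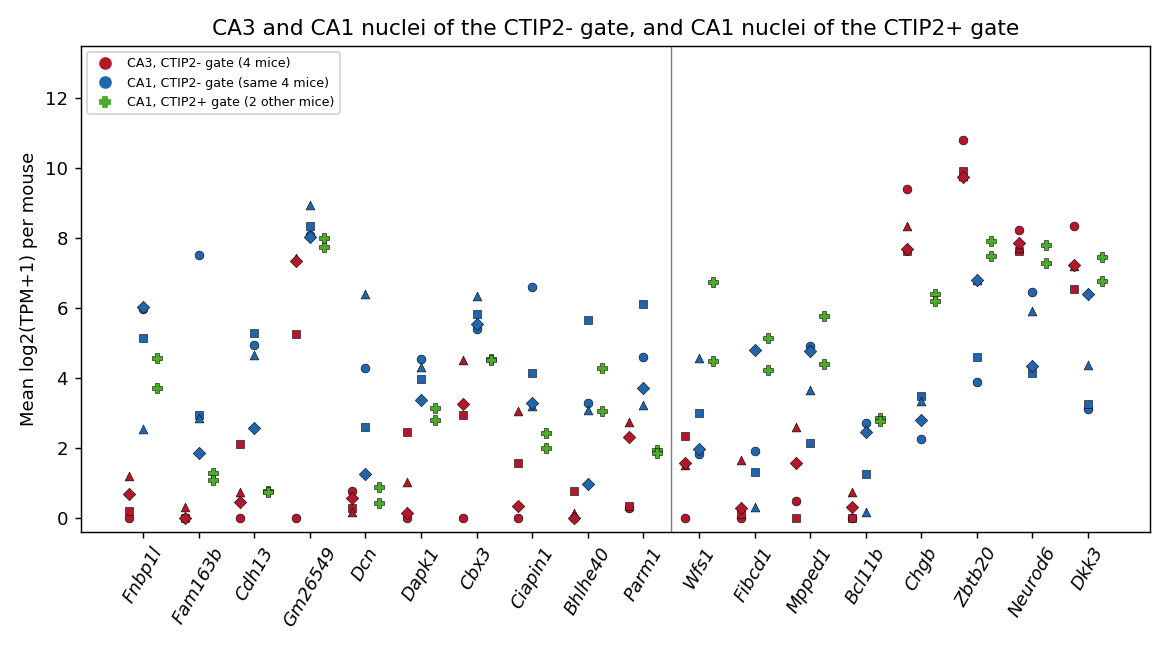
Mean log2(TPM+1) per mouse (y axis) of the 10 genes highest in CA1 (left of the line) and of 8 further genes (right), in CA3 nuclei (red) and CA1 nuclei (blue) of the same 4 mice and in CTIP2+ CA1 nuclei of 2 other mice (green). Cdh13, at 0.76 and 0.72, and Dcn, at 0.42 and 0.88, are near 0 in green, whereas Chgb, at 6.39 and 6.20, is above all blue points.

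Of 36 tested transcription factors of pyramidal neurons, 3 had separated mice with CA3 higher and 1 with CA3 lower, against 2.82% and 1.21% of all tested genes. The median difference was 0.03, against 0.21 over all tested genes, and no test of the group was run. Zbtb20, a zinc finger repressor needed for hippocampal pyramidal identity, was at 10.82, 9.92, 9.78 and 9.75 in CA3 and at 3.87, 4.60, 6.80 and 6.79 in CA1, and Neurod6, a bHLH factor of glutamatergic neurons, averaged 7.86 ± 0.27 and 5.21 ± 1.15. Both are classifier genes. Nfib, a nuclear factor I protein of hippocampal development, averaged 7.14 ± 0.23 against 5.29 ± 1.38. Ldb2, a LIM-domain cofactor, was at 0.00, 1.49, 0.84 and 0.00 in CA3 against 2.05, 6.66, 1.57 and 2.03 in CA1, with 1 CA1 mouse far above the others. The LIM-only protein gene Lmo4 averaged 6.49 ± 2.42 against 3.49 ± 0.84, with overlapping mice.

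Of 5 tested kainate receptor genes, Grik4 had separated mice, where 2.82% of all tested genes had CA3 above. It encodes the high-affinity subunit GluK4 of mossy fiber synapses and was at 8.20, 7.85, 4.82 and 4.45 in CA3 and at 1.44, 0.81, 3.39 and 0.90 in CA1 (log2 fold change 3.40 ± 1.44, edgeR adjusted p = 1). The log2 fold change was 7.08 without 1 h mouse 4, 3.34 without 1 h mouse 10, 2.63 without HC mouse 4 and 2.58 without HC mouse 8. Grik4 was above 1 in 14 of 14 CA3 and 11 of 19 CA1 nuclei. The other tested members overlapped: Grik5, which encodes GluK5, averaged 3.01 ± 2.22 and 1.84 ± 0.76, the principal subunit gene Grik2 4.61 ± 2.86 and 5.60 ± 1.72, and the auxiliary subunit gene Neto2 2.10 ± 2.97 and 1.44 ± 0.13. The Neto2 mean of CA3 came from the single nucleus of HC mouse 4, at 6.53 against 0.17 to 0.88 in the other mice, and without it the difference was -0.85 in place of 0.66.

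AMPA receptor subunits and their auxiliary proteins had 1 of 11 tested members with CA3 above, against 2.82% of all tested genes. This was Grip1, a scaffold that binds AMPA receptors, at 1.56 ± 0.81 in CA3 and 0.30 ± 0.28 in CA1. The subunit gene Gria3 averaged 7.08 ± 1.12 in CA3 and 8.80 ± 0.43 in CA1, whereas the auxiliary genes Cnih2 (4.38 ± 2.48 against 2.39 ± 0.59) and Cacng2, or stargazin (2.53 ± 1.72 against 0.65 ± 0.58), were on average higher in CA3. Shisa9, another auxiliary gene, averaged 0.34 ± 0.68 and 2.02 ± 1.50. None of the 4 tested NMDA receptor genes and none of the 4 tested metabotropic receptor genes had separated mice. Over all tested genes 2.82% had CA3 above and 1.21% had CA3 below. Grin2a averaged 7.73 ± 0.78 in CA3 and 5.56 ± 1.62 in CA1, and Grin2b was high in both, at 9.70 ± 0.50 and 10.18 ± 0.24. Grin1, the obligatory subunit, was 6.14 ± 2.48 and 7.27 ± 0.62, and without HC mouse 4 its difference was 0.02 in place of -1.13. The modulatory subunit gene Grin3a averaged 0.94 ± 0.93 and 1.92 ± 1.24. The presynaptic receptor gene Grm7 averaged 7.78 ± 1.04 and 6.72 ± 1.40, Grm8 0.47 ± 0.57 and 1.51 ± 1.21, and Grm5 6.91 ± 1.61 and 7.44 ± 0.86. Without HC mouse 4 the difference of Grm7 was 0.07 in place of 1.06.

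Of the GABA receptor subunits, 1 of 11 tested members had CA3 above, against 2.82% of all tested genes. Gabra5, the alpha-5 subunit of extrasynaptic receptors, was at 6.16, 6.36, 6.12 and 6.71 in CA3 and at 2.05, 1.83, 5.01 and 2.84 in CA1. The CA3 mice were within an SD of 0.27, and the edgeR log2 fold change on summed counts was smaller than the difference of mean levels, at 0.74 ± 0.65 (adjusted p = 1). Gabrb2 averaged 3.21 ± 2.33 and 4.92 ± 2.86, and Gabra3 0.70 ± 1.07 and 2.22 ± 1.53, both with overlapping mice. Direction was thus not shared among the subunits, and the median difference of the list was -0.15.

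Potassium and HCN channel genes had 2 of 29 tested members with CA3 above and 1 with CA3 below, against 2.82% and 1.21% of all tested genes. Kcnip2, the KChIP2 subunit of A-type channels, was at 7.55, 5.19, 6.85 and 6.76 in CA3 and at 0.56, 1.44, 3.00 and 1.50 in CA1 (log2 fold change 1.84 ± 1.32, edgeR adjusted p = 1). The log2 fold change of Kcnip2 was 4.64 without 1 h mouse 4 and 1.16 without HC mouse 4. Kcnc2, the Kv3.2 subunit of fast-spiking currents and a classifier gene, was at 6.03, 5.90, 5.14 and 4.08 against 0.55, 0.56, 0.22 and 2.24. Its relative Kcnc1, or Kv3.1, averaged 4.00 ± 1.39 and 0.97 ± 1.09, with the lowest CA3 mouse at 2.42 and the highest CA1 mouse at 2.53. Kcnh7, an ERG-type channel, averaged 1.30 ± 1.48 in CA3 and 4.96 ± 2.46 in CA1.

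None of the 20 tested calcium and sodium channel genes had separated mice, against 2.82% above and 1.21% below over all tested genes. Of their differences 15 were above 0, with a median of 0.32. Over all tested genes 6023 of 10172 were above 0, with a median of 0.21. The L-type channel gene Cacna1c averaged 5.27 ± 0.78 in CA3 and 2.87 ± 1.53 in CA1, the P/Q-type gene Cacna1a 6.92 ± 1.06 and 5.08 ± 1.60, and the auxiliary gene Cacna2d3 4.44 ± 2.02 and 2.67 ± 0.79. Of 24 tested genes of calcium binding and transport, Calb1 had CA3 below, against 1.21% of all tested genes. Calbindin, the calcium buffer of dentate granule neurons and of a part of CA1, was at 0.00, 0.13, 1.05 and 2.01 in CA3 and at 2.97, 4.85, 2.04 and 4.20 in CA1, so that its closest CA3 and CA1 mice, at 2.01 and 2.04, nearly met. It was a classifier gene. The calcium sensors Ncald, a classifier gene (5.90 ± 1.75 against 2.37 ± 1.31) and Hpca, or hippocalcin (8.59 ± 1.33 against 6.69 ± 1.38), and the ryanodine receptor gene Ryr2 (5.52 ± 1.02 against 3.69 ± 0.67) were on average higher in CA3, with overlapping mice.

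Synaptic vesicle and release genes had 2 of 22 tested members with CA3 above and 0 with CA3 below, against 2.82% and 1.21% of all tested genes. Synpr, the vesicle protein synaptoporin known from mossy fibers and a classifier gene, was at 8.85, 2.44, 4.29 and 2.49 in CA3 and at 0.56, 0.36, 1.82 and 0.48 in CA1, and was above 1 in 7 of 14 and 4 of 19 nuclei. Syt1, the calcium sensor of fast release, was high and even in both, at 9.75 ± 0.18 and 9.28 ± 0.19. The priming factor Unc13b averaged 4.78 ± 2.02 and 2.02 ± 1.36, the active zone gene Rims1 5.30 ± 0.94 and 3.07 ± 1.47, and the SNARE gene Stx1a 3.82 ± 2.76 and 1.40 ± 1.46.

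Of 46 tested synaptic adhesion genes, 3 had CA3 above and 4 had CA3 below, against 2.82% and 1.21% of all tested genes. Cntnap5c, a contactin-associated protein and classifier gene, was at 8.69, 7.04, 5.08 and 5.67 in CA3 and at 1.54, 2.69, 2.29 and 2.90 in CA1. Nectin3, an adhesion protein of puncta adherentia at mossy fiber synapses, was at 7.70, 7.35, 5.72 and 5.65 against 0.59, 0.78, 3.22 and 1.62 (log2 fold change 2.82 ± 1.22, edgeR adjusted p = 1). The log2 fold change of Nectin3 was 5.73 without 1 h mouse 4, 2.60 without 1 h mouse 10, 2.21 without HC mouse 4 and 2.46 without HC mouse 8. Cdh9, a cadherin known from dentate-to-CA3 synapses, averaged 4.69 ± 0.30 and 2.02 ± 1.41. Below in CA3 were Cdh13 and the genes Ptprd (4.96 ± 1.81 against 7.95 ± 0.55), a receptor phosphatase that organises synapses, Negr1 (2.28 ± 1.55 against 5.22 ± 0.83), of the IgLON family, and Cntnap5a (0.94 ± 0.38 against 2.07 ± 0.31). Ptprd is a classifier gene. Cntn4, a contactin, averaged 1.00 ± 0.89 in CA3 and 4.52 ± 2.83 in CA1, where 1 h mouse 4 was at 0.50 and the other mice were between 5.16 and 7.14.

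Axon guidance genes had the largest median of the lists beyond the markers, 1.21 over 30 tested members against 0.21 over all tested genes, with 23 differences above 0. CA3 mice were all above in 3 and all below in 1, against 2.82% and 1.21% of all tested genes. Unc5c, a netrin receptor, was at 8.38, 7.96, 7.71 and 6.62 in CA3 and at 2.62, 5.30, 5.95 and 1.27 in CA1 (log2 fold change 1.59 ± 1.00, edgeR adjusted p = 1). The Slit receptor gene Robo2 averaged 6.05 ± 1.29 and 3.47 ± 1.30, and the semaphorin co-receptor gene Nrp1 6.25 ± 0.46 and 3.75 ± 1.41. Epha3, an ephrin receptor gene, averaged 4.29 ± 0.93 and 1.75 ± 1.29 with overlap. Efnb3, a transmembrane ephrin, went the other way, at 0.00, 0.77, 0.00 and 0.00 against 4.37, 2.54, 2.38 and 1.86 (log2 fold change -6.04 ± 2.00, edgeR adjusted p = 1). DESeq2, which also tested low genes, called 4 of the 38 measured members, all lower in CA3, against 1.56% of all genes it tested.

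**Figure D4:**
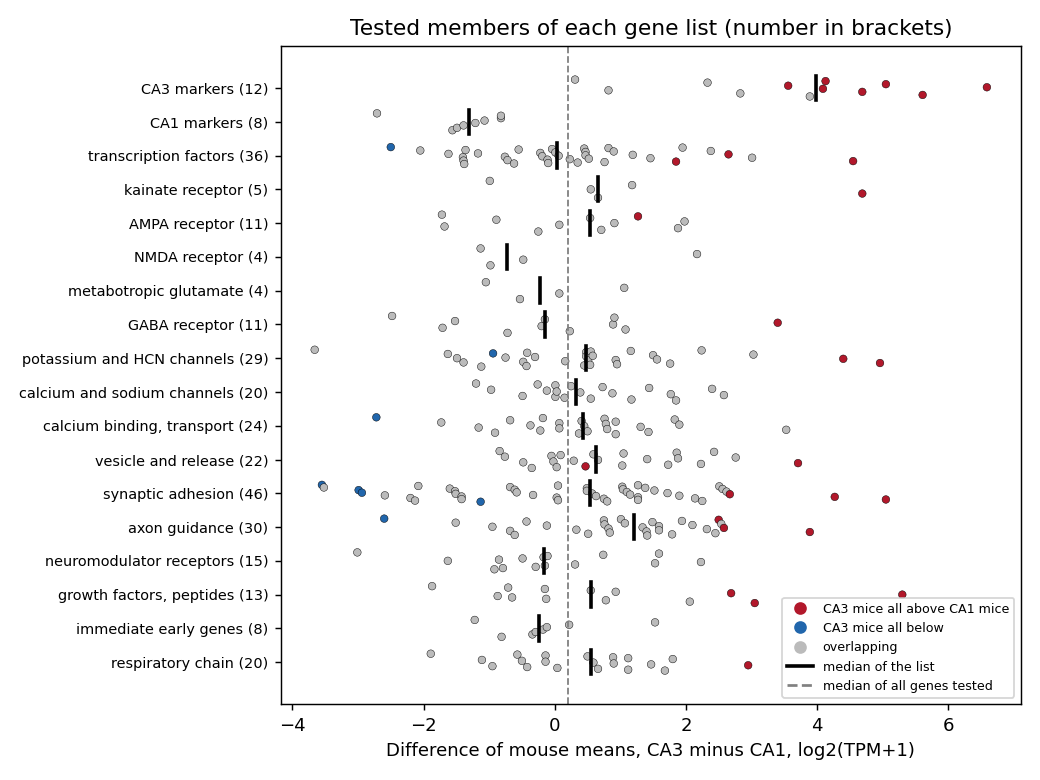
Difference of mouse means, CA3 minus CA1 in log2(TPM+1) (x axis), of every tested member of 18 gene lists (rows), red where all CA3 mice were above all CA1 mice, blue where all were below and grey where they overlapped. Black bars are list medians and the dashed line is the median of all tested genes, 0.21, and the list medians run from -1.30 for CA1 markers to 3.99 for CA3 markers.

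Receptors for neuromodulators and steroids had 0 of 15 tested members with separated mice, against 2.82% above and 1.21% below over all tested genes. Nr3c1, the glucocorticoid receptor, came close, at 0.00, 2.61, 0.86 and 1.12 in CA3 and at 3.87, 4.76, 2.54 and 5.48 in CA1, with 1 CA3 mouse at 2.61 above 1 CA1 mouse at 2.54. The cannabinoid receptor gene Cnr1, also a classifier gene, averaged 3.88 ± 1.54 and 5.51 ± 0.45. Adra1d, an adrenergic receptor gene, averaged 2.86 ± 2.66 and 0.62 ± 1.25, and the nicotinic receptor gene Chrna7 2.43 ± 2.85 and 0.84 ± 0.99. Of the growth factor and peptide genes, Chgb, Dkk3 and Fgfr1 had CA3 mice above, 3 of 13 tested members against 2.82% of all tested genes. Fgfr1, a fibroblast growth factor receptor, averaged 6.60 ± 1.00 and 3.91 ± 0.77. Bdnf, the neurotrophin, was at 5.09, 3.65, 3.05 and 2.33 in CA3 and at 0.24, 1.60, 2.98 and 1.05 in CA1, and was above 1 in 7 of 14 and 6 of 19 nuclei.

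Immediate early genes, which mark recent activity, had 0 of 8 tested members with separated mice, against 2.82% above and 1.21% below over all tested genes. Fos RNA was at 0.33 or less in the CA3 nuclei and at up to 2.21 in the CA1 nuclei. Egr1 averaged 1.98 ± 1.49 and 2.32 ± 2.11, Jun 0.57 ± 1.05 and 1.38 ± 0.38, Nr4a2 0.70 ± 0.88 and 1.92 ± 1.01, and Nr4a3 3.63 ± 0.98 and 2.10 ± 0.84. Arc was above 2.5 in 1 CA3 nucleus and 4 CA1 nuclei, and edgeR called 0 of 9709 genes without these (312 at an unadjusted p below 0.05). Of 20 tested respiratory chain genes, Cox5a had CA3 above, against 2.82% of all tested genes, at 5.68 ± 1.89 in CA3 and 2.72 ± 0.18 in CA1. Cox7a2 (6.25 ± 2.26 against 4.45 ± 0.96) and Uqcrc2 (6.05 ± 2.24 against 4.37 ± 1.57) were on average higher in CA3, and the ATP synthase gene Atp5c1 lower (3.02 ± 0.85 against 4.91 ± 1.96). Without HC mouse 4 the difference of Uqcrc2 was 0.46 in place of 1.68.

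Markers of other cells were low in both types. Summed over 11 measured interneuron markers, mouse means lay between 0.391 and 9.497 in CA3 and between 3.534 and 8.451 in CA1, with Slc32a1 and Vip at 0 in every mouse and Gad1 at 0.48 or less. The exception was Sst, somatostatin, at 4.20, 2.67, 6.96 and 0.00 in CA3 and at 6.01, 1.86, 4.13 and 2.17 in CA1. The 12 glial and vascular markers summed to 3.786 to 7.480 in CA3 and 4.569 to 15.530 in CA1, with Cldn5 at 0, and the top of that range was HC mouse 4, whose CA1 nuclei had the myelin gene Mbp at 5.28. The microglial gene Cx3cr1 averaged 1.15 ± 0.56 and 1.42 ± 0.27. Sums of the 8 dentate granule markers were 5.067 to 10.430 in CA3 and 6.534 to 10.020 in CA1, with Prox1 at 0.69 or less, and 1 of 3 tested members, Calb1, had CA3 mice below, while Stxbp6 and Pdzd2 averaged 1.50 ± 0.31 and 1.73 ± 1.16 in CA3 against 2.27 ± 0.79 and 1.16 ± 0.72 in CA1. The part of these transcripts in the differences was not tested.

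CA2 neurons could also have entered the gate. The 10 CA2 markers summed to 8.668 to 25.260 in CA3 and 10.740 to 17.920 in CA1, with Map3k15 and Vcan at 0. Of 6 tested members 0 had separated mice, against 2.82% above and 1.21% below over all tested genes. Stard5 was at 0.59, 6.76, 4.43 and 5.01 in CA3 and at 1.18, 1.12, 2.18 and 0.99 in CA1, whereas Amigo2 averaged 1.75 ± 2.00 and 0.50 ± 0.81, Pcp4 1.58 ± 2.09 and 2.45 ± 1.76, and Adcy6 0.91 ± 0.94 and 1.64 ± 1.03. Mossy cell markers summed to 3.275 to 10.890 and 2.376 to 8.002, with Drd2 at 0, Csf2rb2 at 2.84 ± 0.55 and 2.52 ± 0.51, and Ajap1 at 2.28 ± 1.93 and 1.93 ± 1.50. The 7 subiculum markers summed to 7.701 to 12.320 in CA3 and 9.118 to 20.050 in CA1, with Nts at 0 and 0 of 3 tested members separated, and with Fn1 at 4.18 ± 0.49 and 5.06 ± 0.46, Ntng2 at 3.61 ± 0.33 and 2.85 ± 0.61, and Tshz2 at 1.43 ± 1.76 and 1.37 ± 0.69. Of 8 tested genes of glutamatergic neurons Neurod6 had CA3 above, against 2.82% of all tested genes. Camk2a was 9.81 ± 0.92 and 8.50 ± 1.04, Slc17a7, the vesicular glutamate transporter and a classifier gene, 7.86 ± 1.14 and 6.81 ± 1.23, and Rbfox3, which encodes NEUN, 4.81 ± 0.90 and 3.22 ± 0.83. Without HC mouse 4 the difference of Camk2a was 0.43 in place of 1.31. Satb1, a chromatin organiser on that list, was 0.45 ± 0.77 in CA3 and 2.51 ± 1.14 in CA1.

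Whether the difference between types depended on the exposure was asked with the interaction of type and exposure, 2 mice against 2. It was passed by 0 of 14202 genes (0%, edgeR), with 823 at an unadjusted p below 0.05. The direction of the 20 genes of largest difference within each mouse was fixed by their choice, so their sizes are given. In the HC mice the difference was 8.69 for Rnf182, 6.90 for Grik4, 6.84 for Nectin3 and 6.66 for Trps1, and at 1 h it was 4.48, 2.48, 3.27 and 3.17. Parm1 differed by -5.05 in HC mice and by -0.95 at 1 h. Rnf182, Grik4, Nectin3, Trps1 and Parm1 had an unadjusted edgeR interaction p below 0.05, as did 15 of 115 named genes in all. The smallest adjusted p among all named genes was 0.832. The CA3 value of HC mouse 4 is 1 nucleus, and 1 h mouse 4 held 2 CA1 nuclei and 1 CA3 nucleus with markers against their label. Its CA1 means of Grik4, Nectin3 and Trps1, at 3.39, 3.22 and 2.23, were the highest of the CA1 mice. The part of these nuclei in the sizes by exposure was not tested. Chgb, with 5.65 and 4.95, and Dapk1, with -3.03 and -3.27, were close in both pairs of mice. By library set, Rnf182 differed by 7.21 in the first and 5.97 in the second set, Chgb by 6.08 and 4.53, Trps1 by 5.60 and 4.23, and Slc1a2 by 4.24 and 5.62, so the order of the genes changed between sets. Fam163b differed by -5.04 and -2.38, and Gm26549 by -4.81 and -1.90.

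**Figure D5:**
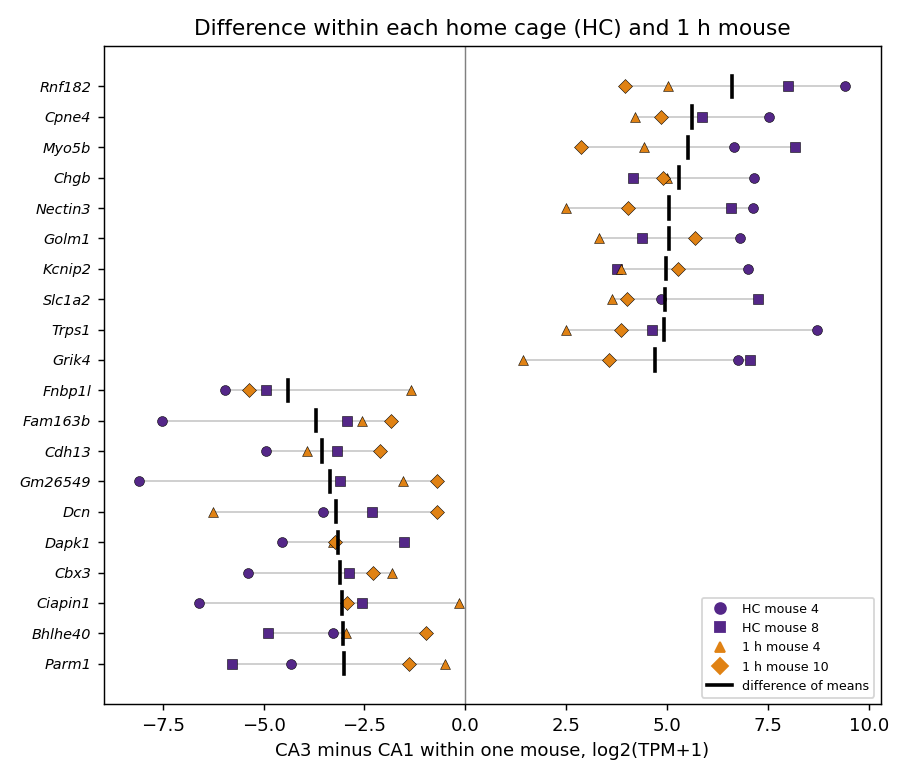
Difference of CA3 minus CA1 in log2(TPM+1) within each mouse (x axis) for the 20 genes of largest difference (rows), purple for HC mice and orange for 1 h mice, with the shape giving the mouse and the bar the difference of means. The genes were chosen for separated mice, which puts all points of a gene on the same side of 0. HC and 1 h mice overlap for Chgb, Golm1, Kcnip2, Fnbp1l, Cdh13, Dcn, Dapk1 and Ciapin1. For the other genes both HC mice are farther from 0 than both 1 h mice. The CA3 value of HC mouse 4 is 1 nucleus.

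FOS+ nuclei of the 2 mice at 1 h, 13 CA3 and 9 CA1, gave values in other nuclei of mice already used. Of the 10 genes highest in CA3, 7 had both FOS+ CA3 means above both FOS+ CA1 means, where 19.4% of all tested genes did. Rnf182 was at 7.75 and 7.67 in FOS+ CA3 and at 4.47 and 3.54 in FOS+ CA1, and Grik4 at 6.47 and 6.25 against 4.35 and 3.60. Chgb, at 8.42 and 7.08 against 9.87 and 3.55, did not separate, nor did Golm1 and Slc1a2. Of the 10 genes highest in CA1, 2 had both FOS+ CA3 means below both FOS+ CA1 means, where 12.4% of all tested genes did, and these were Gm26549 and Dapk1. Cdh13 was at 3.80 and 3.71 in FOS+ CA3 nuclei, above its highest FOS- CA3 mouse at 2.10. With 2 mice a type these values carry no test.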

How the data were processed

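Single nuclei of female C57BL6 hippocampus were made into SmartSeq2 libraries, without strand or molecular identifiers, and read single-end. Per the methods, reads passed Solexa-QA++ trimming and were quantified by the authors with RSEM and Bowtie on mm10, with an Ensembl annotation whose release is not given in the sources used here. The deposited expected counts are RSEM estimates per gene and hold whole numbers, and the deposited log2 values are log2(TPM+1) computed by the authors. Genes with a missing value were dropped, which left 42772 genes with counts and 40198 with log2 values. A second deposited pair of tables, of dentate granule nuclei, was not used.

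Counts were summed over the FOS- nuclei of each mouse and type, and the types were compared by the quasi-likelihood test of edgeR 4.0.16 (R 4.3.3), with TMM scaling, the filterByExpr filter and Benjamini-Hochberg adjustment over all tested genes at 0.05. Levels are means of log2(TPM+1) per mouse, and their differences understate the change of low genes. A mouse was an exposure, mouse number and library set. Since 1 animal gave both of its sums, the mouse numbers pair the samples, and deviations from the type means correlated within a mouse at 0.0521, 0.0382, 0.0548 and 0.0470, against a median of -0.0122 between mice. The main test leaves the pairing out, and the replicate block was an alternative. Total counts were 343713 to 2423886 per nucleus, and 0 pairs of nuclei held identical counts. The script was tested on simulated data.

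The members and gene lists were chosen with earlier results of these data known. Named genes are all CA3 and CA1 markers, the 10 genes of largest difference in each direction with separated mice (0 genes passed the threshold), and up to 4 tested members of largest difference in each other list. Some genes that the rule takes are not reported here. Nfib, Grip1, Syt1, Cdh9, Negr1, Ptprd, Cntnap5a, Nrp1 and Ly6e fall outside this rule and were named after their values were seen, and Bcl11b, Fos, Arc, Gad1, Prox1 and Slc17a7 served as checks. Alternatives were DESeq2 1.42.0, its size factors, limma 3.58.1, no filter, replicate blocks, leaving out nuclei with Arc, minimums of genes and nuclei, single library sets and exposures, added CTIP2+ nuclei, and leaving out each mouse. Thinning to 200000 counts and leaving out the 5 nuclei with markers against their label were added after the values were seen. Gene positions are from GENCODE vM21, joined by symbol. Python 3.11.15, numpy 2.4.6, pandas 2.3.3, scipy 1.17.1 and matplotlib 3.10.9 were used.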

Additional observations from a re-analysis of the deposited data

Results flagged for a closer look

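Among the 115 named genes, each type's 4 mouse means were searched for a mouse whose gap to the nearest of the others exceeded Dixon's critical share of the whole range. This happened in 29 of 230 groups of 4 values, where chance flags about 1 in 20 groups, and a gene at 0.00 in the other 3 mice passes whenever 1 mouse is above 0. The levels below are mean log2(TPM+1), the mouse that stands apart first and the range of the other 3 mice after it. In the CA1 nuclei of 1 h mouse 10 this held for Kcnc2 at 2.24 against 0.22 to 0.56. In the CA1 nuclei of 1 h mouse 4 this held for Adra1d at 2.5 against 0.00, Bok at 1.03 against 0.00, Iyd at 0.87 against 0.00, Neto2 at 1.64 against 1.36 to 1.40, Socs2 at 8.78 against 3.16 to 3.94, Stard5 at 2.18 against 0.99 to 1.18 and Synpr at 1.82 against 0.36 to 0.56. In the CA1 nuclei of HC mouse 4 this held for Camk2a at 6.95 against 8.89 to 9.18, Mbp at 5.28 against 0.86 to 1.55, Ncald at 4.32 against 1.57 to 1.90 and Robo2 at 1.54 against 3.92 to 4.39. In the CA1 nuclei of HC mouse 8 this held for Ldb2 at 6.66 against 1.57 to 2.05 and Plagl1 at 2.19 against 0.11 to 0.17. In the CA3 nuclei of 1 h mouse 10 this held for Jun at 2.15 against 0.00 to 0.15 and Lefty1 at 1.56 against 0.00. In the CA3 nuclei of 1 h mouse 4 this held for Fam163b at 0.29 against 0.00, Fibcd1 at 1.65 against 0.00 to 0.27, Satb1 at 1.60 against 0.00 to 0.21, Shisa9 at 1.35 against 0.00 and Zdhhc2 at 4.85 against 3.09 to 3.23. In the CA3 nuclei of HC mouse 4 this held for Bok at 8.88 against 2.54 to 3.32, Grm5 at 4.51 against 7.46 to 7.88, Neto2 at 6.53 against 0.17 to 0.88, Trps1 at 8.82 against 4.67 to 4.92 and Zbtb20 at 10.82 against 9.75 to 9.92. In the CA3 nuclei of HC mouse 8 this held for Cox7a2 at 2.90 against 7.07 to 7.79 and Efnb3 at 0.77 against 0.00. The CA3 value of HC mouse 4 is 1 nucleus.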

How the results depend on the processing

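The count of genes called between CA3 and CA1 was 0 with DESeq2 size factors, limma, no filter, both replicate blocks, the Arc, gene and nuclei minimums, single library sets and exposures, added CTIP2+ nuclei, thinned nuclei and each mouse left out (0 to 0). It was 357 with DESeq2 (156 higher and 201 lower in CA3) and 2 without the 5 nuclei whose markers went against their label. The cause was not tested. With the mouse as a replicate block in edgeR, 0 genes were called in either comparison (303 between the types at an unadjusted p below 0.05), and the pairing changed no other call. The interaction was passed by 0 genes in every edgeR fit with the filter, by 490 with DESeq2 and by 1 gene with no filter on low counts. Of the 490, CA3 minus CA1 was shifted towards CA3 at 1 h for 304 and towards CA1 for 186. These counts give the direction of the shift and not whether the types were farther apart. Total counts and genes per nucleus were higher in CA3 under every alternative run and did not pass the exact permutation test, which with 3 mice a type cannot go below 0.1, with differences of 437040 to 523150 counts and 625 to 926 genes when a mouse was left out. The edgeR log2 fold changes of the 20 genes of largest difference, which were chosen for separated mice, had 1 sign in all fits, where 8 passed with DESeq2 and Trps1 without the 5 nuclei, and Bhlhe40 was not tested without the Arc nuclei. Of the other named genes, Npy2r, Socs2, Amigo2, Egr1, Grin1, Neto2, Mbp, Stx1a, Gabrb2, Chrna7 and Sst were among those whose difference changed sign in some subset of mice. The single CA3 nucleus of HC mouse 4 limits the genes listed at 0 in it.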
